A study of Mus musculus with 22 samples.

Results

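The endogenous opioid system was examined in the transcriptome of the right brain hemisphere of socially ranked mice, through the 3 genes for its peptide precursors (Penk, Pdyn and Pnoc) and the 4 genes for its receptors (Oprm1, Oprd1, Oprk1 and Oprl1). These 7 genes were taken by symbol from 24421 rows that the male and the female count table have in common. The mice were of the strain C57B6/J OlaHsd, as the labels spell C57BL/6JOlaHsd, without a transgene or drug treatment, housed in same-sex cages of 4. Their rank was set when they were 10 to 12 weeks old by the tube test, a contest in a narrow tube that the mouse forced backwards loses. Right hemispheres of 7 dominant and 7 submissive males and of 4 dominant and 4 submissive females were sequenced as total RNA. Each of the 11 cages gave 1 dominant and 1 submissive mouse, as far as the library names show, and a cage is called here by its replicate number. In females, replicates 1 and 2 carry cage numbers in the library names and replicates 3 and 4 carry group labels. The study's methods state that females of intermediate rank were put into new groups and ranked again, and whether any of the sequenced females came from these is not given in the sources used here. Rank was a selection among cage mates, not an assigned treatment, so whether a difference came before or after the rank cannot be told apart. The sample was a whole hemisphere, in which fewer cells of a type and less RNA per cell cannot be told apart.

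Opioid peptides are cut out of larger precursor proteins and released by neurons, and they act on receptors that couple to inhibitory G proteins, lower cyclic AMP, open potassium channels and close calcium channels. Penk encodes the enkephalins, which bind the delta receptor (Oprd1) and the mu receptor (Oprm1), Pdyn encodes the dynorphins, which prefer the kappa receptor (Oprk1), and Pnoc encodes nociceptin, the ligand of the nociceptin receptor (Oprl1). The system is known for pain relief, reward, aversion and the response to stress, and in the forebrain the enkephalin and dynorphin precursors mark different projection neurons of the striatum.

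The precursors differ in how many opioid peptides they hold, which can be read in their coding sequences. An opioid core, 4 codons for tyrosine, glycine, glycine and phenylalanine, stood in frame 7 times in Penk and 3 times in Pdyn, each time after a pair of codons for basic residues, where processing enzymes cut. In Penk a methionine codon followed the core 6 times and a leucine codon 1 time, while all 3 cores of Pdyn preceded leucine. Pnoc held no such core but 1 with phenylalanine in place of tyrosine. Among 21470 mouse genes with a coding sequence in the GENCODE annotation, 71 (0.331%) held the tyrosine core in frame, 4 of them at least 3 times, and 106 (0.494%) held the phenylalanine core. The following 27-base stretches, 5′ to 3′ on the coding strand with the core in capitals, show the methionine type, the leucine type and the last core of Penk, the 3 cores of Pdyn (neoendorphin, dynorphin A and dynorphin B, in this order) and the core of Pnoc.
Penk, core 1, methionine type: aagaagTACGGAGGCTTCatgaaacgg
Penk, core 6, leucine type: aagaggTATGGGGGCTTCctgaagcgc
Penk, core 7: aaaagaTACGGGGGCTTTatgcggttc
Pdyn, core 1: aaacgcTATGGCGGCTTTttgcgcaaa
Pdyn, core 2: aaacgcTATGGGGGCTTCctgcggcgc
Pdyn, core 3: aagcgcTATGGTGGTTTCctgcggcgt
Pnoc, core 1: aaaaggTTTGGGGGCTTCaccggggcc
All stretches lie on the minus strand of mm10, the cores of Penk at chr4:4134328-4134354, chr4:4133935-4133961 and chr4:4133842-4133868. Those of Pdyn lie at chr2:129688232-129688258, chr2:129688124-129688150 and chr2:129688067-129688093, and that of Pnoc at chr14:65404872-65404898. The counts are per gene and do not tell which peptide was made.

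Between 12403943 and 16488762 reads per sample were counted on genes, and every member was counted in every sample. Penk had 1660 to 3040 reads per sample, Oprl1 980 to 1408, Pdyn 247 to 543, Oprd1 194 to 298, Oprk1 174 to 292, Oprm1 88 to 201 and Pnoc 69 to 133. The counting error, relative to the level, was therefore widest for Pnoc and Oprm1. All 7 passed the filter on low counts in each comparison. A pair of libraries stood apart in its tissue markers. Dominant male 1 held no read of the Purkinje cell gene Pcp2, and its 6 cerebellar markers summed to 173 CPM (counts per mega of counted reads, after scaling by library), against 534 to 848 CPM in the other males. Submissive female 3 held the pituitary hormones Prl at 11.8 CPM and Gh at 4.08 CPM, against at most 0.588 and 0.443 CPM in the other samples. All 7 brain identity markers (neurons, astrocytes, oligodendrocytes, microglia and endothelium) were detected in each group, with a summed level of 4350 to 5190 CPM.

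The members spanned a wide range of levels, which were compared as CPM per kilobase of exon (CPM/kb). Penk was the most abundant with a mean of 109 CPM/kb over the 22 samples (88.4 to 135), followed by Oprl1 with 24.6 (21.4 to 27.9) and Pdyn with 10.8 (7.86 to 13.3). Oprd1 had a mean of 4.34 CPM/kb (3.53 to 4.97), Oprk1 3.5 (2.43 to 4.41), Pnoc 2.94 (2.33 to 3.84) and Oprm1 2.26 (1.25 to 3.04). The first 3 steps of this order held in each of the 22 samples with no overlap between neighbours. Oprd1, Oprk1, Pnoc and Oprm1 overlapped with their neighbours: Oprk1 was above Pnoc in 14 of 14 males but in 2 of 8 females, and Pnoc was above Oprm1 in 8 of 14 males and in 8 of 8 females. The nociceptin receptor was thus far more abundant per length than its own precursor, whereas Penk exceeded both of its receptors.

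**Figure D1:**
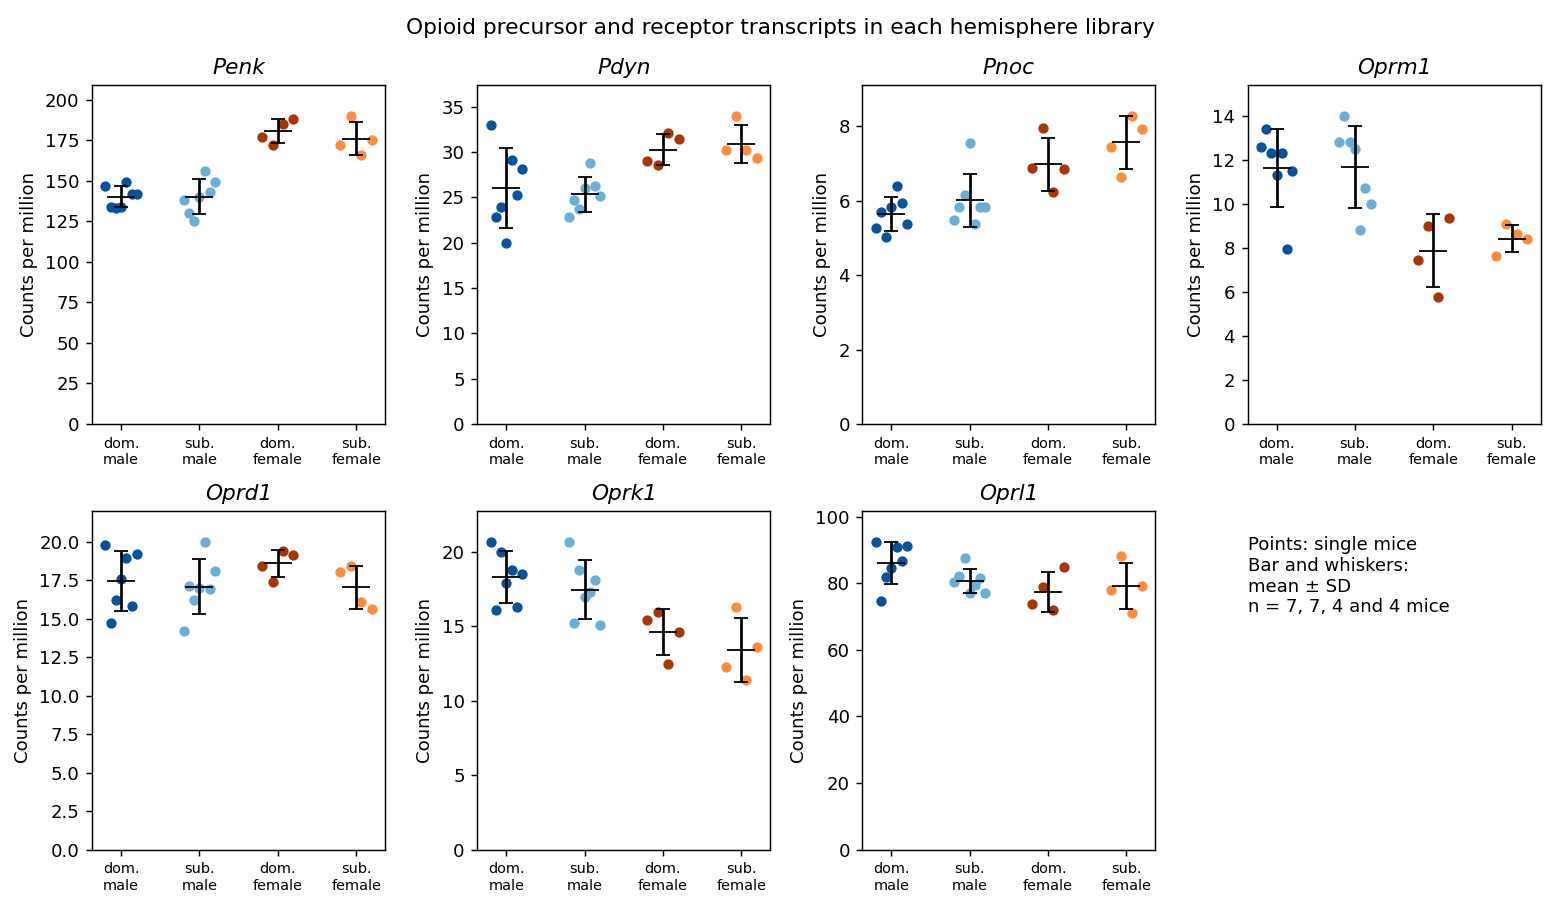
Normalized level (CPM, axis from 0) of each of the 7 genes in every mouse, by rank and sex, with the mean and SD of 7, 7, 4 and 4 mice. The ranks overlap in every panel, whereas the 8 females lie above the 14 males for Penk (166 to 190 against 125 to 156). For Oprm1 and Oprk1, 12 and 11 of the 14 males lie above all females, and 3 and 5 of the 8 females lie below all males.

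The main question of the design was whether dominant and submissive mice differ. None of the 7 genes differed by rank in males, in females or over the 11 cages with edgeR's quasi-likelihood test and Benjamini-Hochberg adjustment over all genes. In males 0 of 7 were called, where 0.0% of 14737 genes were called in all (1.32% at an unadjusted p under 0.05). In females 0 of 7 were called, against a background of 0.0942% of 14865 genes (10.5% unadjusted). Over the 11 cages 0 of 7 were called against 0.0% of 15475 genes (2.82% unadjusted). None of the 7 had an unadjusted p under 0.05 in these fits, with edgeR or with DESeq2.

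Penk, the enkephalin precursor, lies on chromosome 4 (mm10 chr4:4133536-4138445, minus strand, 1412 exon bases). Its lowest, median and highest levels were 133, 142 and 149 CPM in dominant males and 125, 140 and 156 CPM in submissive males. Dominant females of replicates 1 to 4 had 177, 172, 185 and 188 CPM and submissive females 172, 190, 166 and 175 CPM. The ranks overlapped fully in both sexes, and the log2 fold change (dominant over submissive) was -0.003 ± 0.0471 (SE) in males and 0.029 ± 0.0395 in females. Over the cages it was 0.013, with a 95% interval of -0.044 to 0.07, so a rank difference in Penk beyond a factor of 0.97 to 1.05 lay outside the interval.

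Pdyn, the dynorphin precursor (chr2:129686549-129699938, minus strand, 2547 exon bases), varied most among dominant males. It ranged from 20 over a median of 25.3 to 33.0 CPM in dominant males and from 22.8 over 25.1 to 28.8 CPM in submissive males. Dominant females had 29.0, 28.6, 32.1 and 31.4 CPM and submissive females 30.2, 34.0, 30.2 and 29.3 CPM. The highest dominant male was replicate 1, the library without Pcp2, and its cage mate was the lowest submissive male at 22.8 CPM. The log2 fold change was 0.04 ± 0.0873 in males and -0.038 ± 0.0591 in females. Without dominant male 1 the value in males was -0.03, and the part of its missing cerebellar reads in this was not tested.

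Pnoc, the nociceptin precursor (chr14:65400673-65425472, minus strand, 2157 exon bases), was the member with the fewest reads. It had 5.02, 5.69 and 6.4 CPM (lowest, median, highest) in dominant and 5.37, 5.82 and 7.54 CPM in submissive males. Dominant females had 6.87, 7.95, 6.22 and 6.86 CPM and submissive females 7.43, 6.63, 8.28 and 7.92 CPM. It was lower in the dominant mouse in 8 of 11 cages, with a log2 fold change of -0.10 (95% interval -0.243 to 0.05) over the cages. The exact sign-flip test of the 11 within-cage differences gave p = 0.178, two-sided.

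Oprm1, the mu receptor, the main target of morphine, spans a long stretch of chromosome 10 (chr10:6758593-7038209, plus strand, 4600 exon bases). Of these bases 68 are shared with Ipcef1, so a small part of its reads is uncertain. The lowest, median and highest levels were 7.96, 12.3 and 13.4 CPM in dominant males and 8.79, 12.5 and 14 CPM in submissive males. Dominant females had 7.44, 8.98, 5.76 and 9.34 CPM and submissive females 7.62, 9.07, 8.61 and 8.4 CPM. Single mice lay low in both ranks, and the intervals for rank were the widest of all members, -0.236 to 0.234 on the log2 scale in males and -0.359 to 0.157 in females.

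Oprd1, the delta receptor (chr4:132110726-132144486, minus strand, 4021 exon bases), had the largest fold of a receptor in females, nearly equal to that of Oprk1. Their log2 fold changes were 0.121 and 0.117, and 0.0973 and 0.0509 without submissive female 3, the library with pituitary reads. Dominant females had 18.4, 17.4, 19.4 and 19.1 CPM and submissive females 18, 18.4, 16.1 and 15.6 CPM. Males ranged from 14.7 over 17.6 to 19.8 CPM when dominant and from 14.2 over 17 to 20 CPM when submissive. The female groups overlapped, with a log2 fold change of 0.12 (95% interval -0.026 to 0.267), an adjusted p of 0.591 by edgeR's quasi-likelihood test and p = 0.114 in the exact permutation test of 4 against 4 mice.

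Oprk1, the kappa receptor (chr1:5588493-5606133, plus strand, 4707 exon bases), was the member whose cage mates differed most regularly. It was higher in the dominant mouse in 6 of 7 male and 3 of 4 female cages. The lowest, median and highest levels were 16.1, 18.5 and 20.7 CPM in dominant and 15.1, 17.3 and 20.7 CPM in submissive males. Dominant females had 15.4, 16, 12.5 and 14.6 CPM and their cage mates 12.3, 16.3, 11.4 and 13.6 CPM. As groups the ranks overlapped, and within cages the exceptions were male cage 6 (16.3 against 18.1 CPM) and female cage 2. In male cage 1 both mice were at 20.7 CPM, and the dominant one counted as higher by a log2 difference of 0.0042. The mean within-cage difference was 0.093 ± 0.131 on the log2 scale (SD, n = 11 cages). The exact sign-flip test gave p = 0.0371, 1 of 7 such tests over the 11 cages and not adjusted for their number. Exact tests were also run within each sex. For Oprk1 the sign-flip test gave p = 0.172 in males and 0.25 in females, and the permutation test 0.376 and 0.371. In edgeR's fit with cage as a term the log2 fold change was 0.09 with a 95% interval of -0.001 to 0.182, an unadjusted p of 0.0528 and an adjusted p of 1, so it was not called, and it ranged from 0.07 to 0.11 when each cage was left out in turn.

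Oprl1, the nociceptin receptor (chr2:181715016-181720985, plus strand, 3314 exon bases), had 74.6, 86.6 and 92.5 CPM (lowest, median, highest) in dominant males and 76.9, 80.5 and 87.5 CPM in submissive males. Dominant females had 73.7, 78.8, 71.9 and 85.0 CPM and submissive females 78.1, 88.1, 71.1 and 79.3 CPM. In males 5 of 7 cages had the higher level in the dominant mouse, yet the lowest level of all males was also that of a dominant mouse, replicate 2. The log2 fold change was 0.09 ± 0.0471 in males (unadjusted p = 0.0686, adjusted p = 1, edgeR's quasi-likelihood test) and the exact permutation test of 7 against 7 gave p = 0.0886. That p ran from 0.0128 without dominant male 2 to 0.166 without dominant male 1, the library without Pcp2, and it was under 0.05 in 2 of 14 omissions, those of dominant male 2 and of submissive male 3 (0.0478). In females the log2 fold change was -0.041 ± 0.057.

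**Figure D2:**
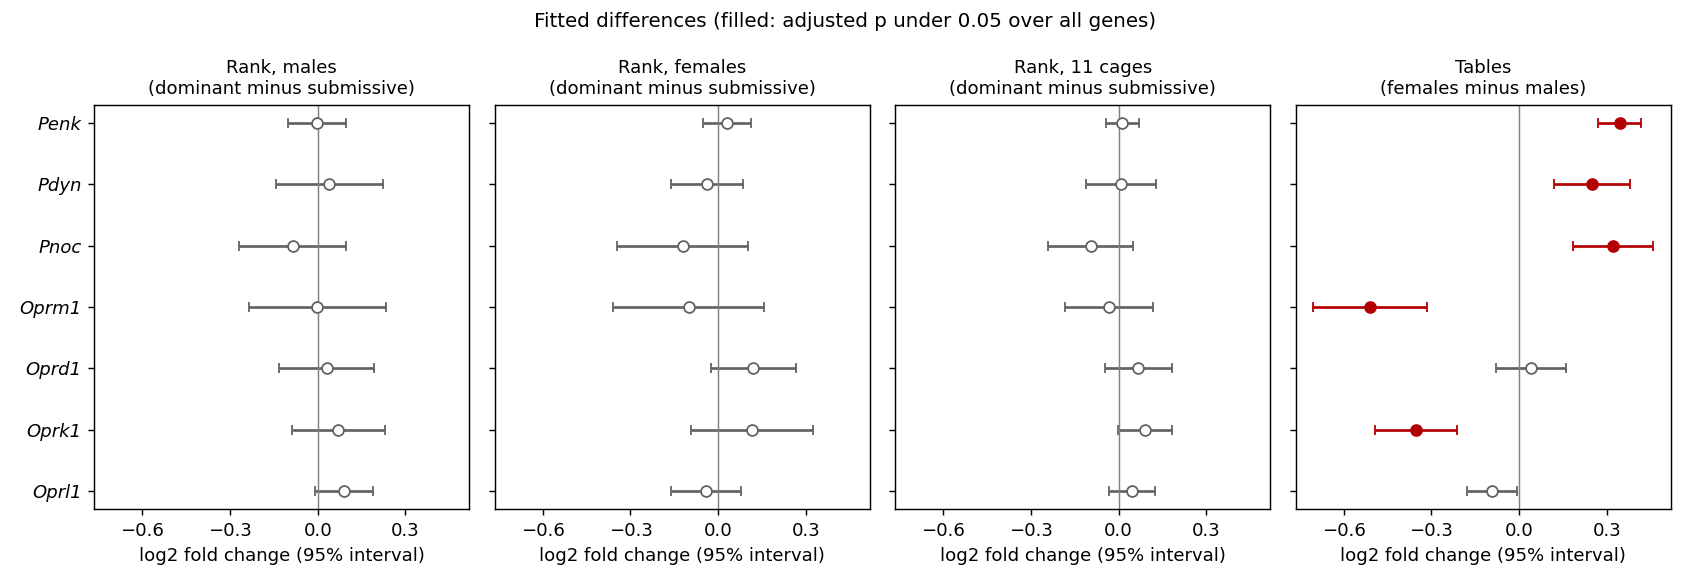
Log2 fold change of each gene with its 95% interval, from edgeR's fits, for rank in males, rank in females, rank over 11 cages (each dominant minus submissive) and for females minus males. All rank intervals include 0, whereas 5 of 7 genes, drawn filled, had an adjusted p under 0.05 between the tables.

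The rank difference itself did not differ detectably between the sexes. The interaction of rank and sex called 0 of 7 members and 0.0% of 15233 genes (3.32% at an unadjusted p under 0.05). Its largest estimate among the members was that of Oprl1, -0.13 (95% interval -0.297 to 0.046), and its widest interval that of Oprm1, -0.486 to 0.296. Opposite signs in males and females were measured for Penk, Pdyn and Oprl1, each with both intervals including 0. In the female comparison, markers of other regions moved with rank: the serotonergic genes Tph2 and Slc6a4, both tested members of that list, were lower in dominant females (log2 fold change -1.77 each, adjusted p = 0.0418), and the peptide gene Cartpt was lower by a log2 fold change of -1.09 (adjusted p = 0.0266). No gene at all was called in females without submissive female 1, without submissive female 3, with exon-length trends removed or in the fit of all 22 samples, where edgeR gave 1426, 1356, 1121 and 579 genes an unadjusted p under 0.05. The 3 serotonergic markers summed to 2.29 to 10.5 CPM in dominant and 9.47 to 27.2 CPM in submissive females, and the 9 hypothalamic ones to 35.0 to 67.5 and 68.3 to 79.9 CPM. Other marker lists held no call by rank in females. Of these, 7 of 7 cortical markers (median 0.146) and 9 of 10 striatal ones (0.074) were above 0. Choroid plexus markers (-0.29) and olfactory bulb markers (-0.232) were above 0 in 0 of 4 each. Interneuron (4 of 7) and cerebellar markers (2 of 6) were mixed. The part of all these markers in the female values of the opioid genes was not tested.

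**Figure D3:**
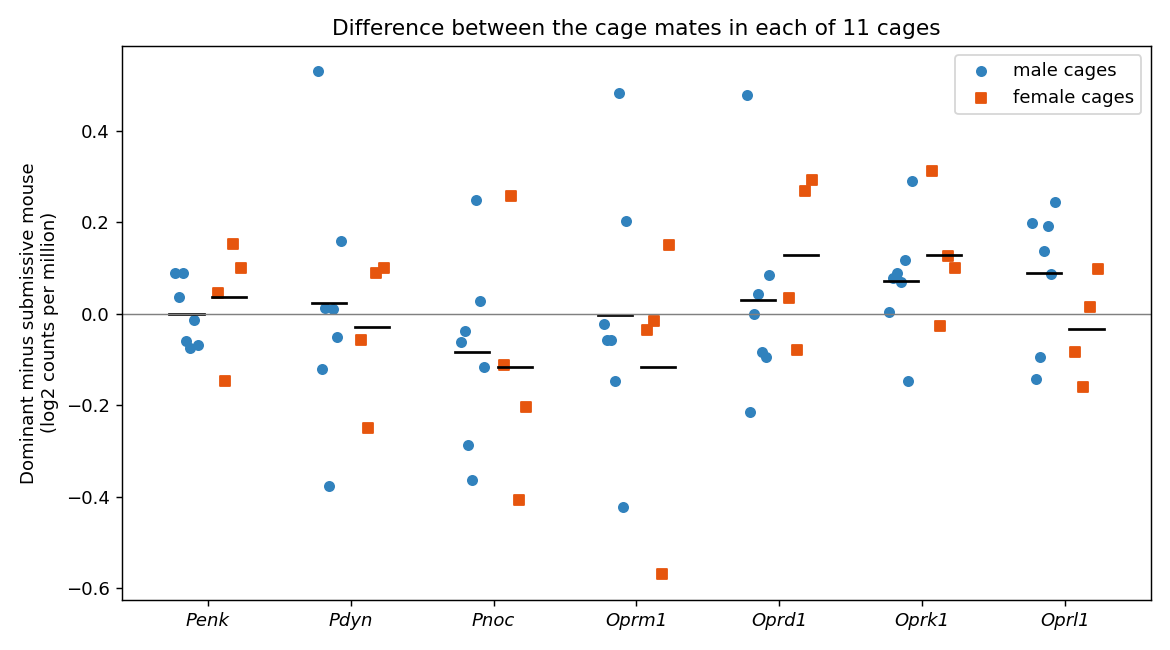
Dominant minus submissive mouse of a cage (log2 CPM) for each gene, in 7 male (circles) and 4 female cages (squares), with the mean of each set as a bar. Oprk1 lies above 0 in 9 of 11 cages, whereas Penk lies above 0 in 6 and Pnoc in 3.

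Genes that act with the receptors and peptides were likewise not called by rank. Of 47 entries in 6 lists, covering other opioid genes, precursor processing, peptide breakdown, inhibitory G proteins, receptor regulators and effector channels or cyclases, 0 were called in males, females, over the cages or in the interaction. In males the list medians ran from -0.064 (peptide breakdown) to 0.047 (G proteins), beside a median of -0.002 over all genes. In females they ran from -0.047 (precursor processing) to 0.069 (effectors), beside -0.002. Pomc, the precursor of beta-endorphin, was expressed at 1.11 to 3.41 CPM except in submissive female 3, which had 6.51 CPM together with the pituitary hormones. Its log2 fold change in females was -0.83, the largest of its list, and the part of the pituitary reads in it was not tested.

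Between the tables the opioid genes differed more than by rank. The male and female libraries stood in separate tables whose library names carry different prefixes, so sex and table cannot be told apart, and the difference is called here the table difference, females minus males. All 3 precursors were higher and 2 of 4 receptors lower in the female table. This is 5 of 7 members called, 3 of 7 higher and 2 of 7 lower, where 36.2% of 15233 genes were called, 18.4% higher and 17.8% lower. The study did not set out to compare these tables, and p-values measure the spread between mice within each of them.

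Penk had the smallest p of the members. Its level was 140 ± 8.53 CPM in males (SD, n = 14) and 178 ± 8.64 CPM in females (n = 8), and all 8 females (166 to 190) lay above all 14 males (125 to 156), as 6.11% of all genes tested did not overlap in either direction. The fold was 1.27 (95% interval 1.21 to 1.34, adjusted p = 4.07e-08, edgeR's quasi-likelihood test). Pnoc was 1.25-fold higher (5.82 ± 0.615 against 7.27 ± 0.736 CPM, adjusted p = 0.000437), with 3 females above all males. Pdyn was 1.19-fold higher (25.7 ± 3.27 against 30.6 ± 1.82 CPM, adjusted p = 0.00292), with 1 female above all males and 11 of 14 males below all females. With dominant mice only, Pdyn had a log2 fold change of 0.21 and was not called (adjusted p = 0.191), while with submissive mice only it had 0.28 and was called (adjusted p = 0.00278).

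Among the receptors Oprm1 differed most, at 11.6 ± 1.74 CPM in males and 8.15 ± 1.18 CPM in females, a fold of 0.702 (95% interval 0.613 to 0.803, adjusted p = 0.000132, edgeR's quasi-likelihood test). Of the males 12 of 14 lay above all females, and dominant male 6 and submissive male 5 lay among them. Oprk1 was 17.9 ± 1.84 CPM in males and 14 ± 1.81 CPM in females, a fold of 0.783 (adjusted p = 0.000204), with 11 of 14 males above all females. Oprd1 was 17.3 ± 1.78 and 17.8 ± 1.37 CPM (fold 1.03, 95% interval 0.947 to 1.12, adjusted p = 0.626). Oprl1 was 83.4 ± 5.68 and 78.2 ± 6.04 CPM (fold 0.938, 95% interval 0.884 to 0.996), with an adjusted p of 0.0886, which fell below the threshold when exon-length trends were removed (0.0455) or when dominant male 2, dominant female 4 or submissive female 2 was left out (0.0306, 0.0253 and 0.0181). The adjusted p of Oprl1 was larger, by the same test, without submissive female 3 (0.162), without both this mouse and dominant male 1 (0.301), with GC trends removed (0.171) and with submissive mice only (0.706, log2 fold change -0.031).

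The 5 calls held with dominant male 1 and submissive female 3 left out together, at log2 fold changes of 0.36 for Penk, 0.29 for Pdyn, 0.29 for Pnoc, -0.51 for Oprm1 and -0.30 for Oprk1, where 32.7% of all genes were called. They also held with the counts of both mice of a cage summed, 7 cages against 4, where 28.6% of all genes were called. With submissive mice only 5 of 7 were called, beside 25.9% of all genes, and with dominant mice only 4 of 7, beside 14.5%.

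The genes around the receptors were mixed in direction. Of the 47 genes of the 6 lists 15 (31.9%) were called, 11 higher and 4 lower, a share near the 36.2% of all genes tested. Of the processing enzymes and their partners 2 of 7 were called, both higher: Pcsk1n, the inhibitor of a prohormone convertase (log2 fold change 0.72, adjusted p = 4e-08), and Cpe, the carboxypeptidase that trims the cut peptides (0.18, adjusted p = 0.000949). The convertases Pcsk1 (-0.069) and Pcsk2 (0.012) were not called. Of 5 inhibitory G proteins Gnai1 was higher (0.31) and Gnaz lower (-0.14), and of 8 peptidases Ctsl was higher (0.099) and Ace lower (-0.22). Among 13 receptor regulators 4 were higher, the receptor kinase Adrbk1 (0.20), the arrestin Arrb2 (0.12) and the regulators of G protein signalling Rgs4 (0.12) and Rgs7 (0.078), and the receptor-sorting gene Gprasp1 was lower (-0.088). Of 9 effectors the cyclase Adcy1 (0.22) and the potassium channel Kcnj9 (0.12) were higher and the potassium channel Kcnj6 (-0.19) was lower. Of 5 other opioid genes Ogfrl1 was higher (0.14). The list medians lay between -0.078 and 0.077 beside a median of 0 over all genes.

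Markers of the tissue also moved with the table. Of 10 markers of striatal projection neurons, where Penk and Pdyn are known to be abundant, Ppp1r1b was higher (0.24), Gpr6 was lower (-0.18), and the list median was -0.036. The summed level of this list was 662 to 846 CPM in males and 689 to 852 CPM in females. Of 7 brain identity markers the neuronal genes Snap25 (0.45) and Rbfox3 (0.39) and the microglial gene Cx3cr1 (0.35) were higher and the myelin gene Mbp (-0.25) was lower. All 6 cerebellar markers were above 0 with a median of 0.28, 2 of them called (Cbln1 and Calb1), and all 4 olfactory bulb markers were below 0 with a median of -0.31, 2 of them called (Doc2g and Th). Of 7 hypothalamic markers tested, the list that Oprm1 followed most closely from mouse to mouse (r = 0.744), 1 was called, the peptide gene Gal (-0.67), and the list median was -0.17. Of 2 serotonergic markers tested Slc6a4 was called (-1.03), and the median was -0.86. Cortical markers had 2 higher (Cux2 and Neurod6) and 1 lower (Rorb) of 7, dentate gyrus and choroid plexus markers 1 lower of 4 each (C1ql2 and Kl), and interneuron and thalamic markers 0 called. Their part in the table difference of the opioid genes was not tested.

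**Figure D4:**
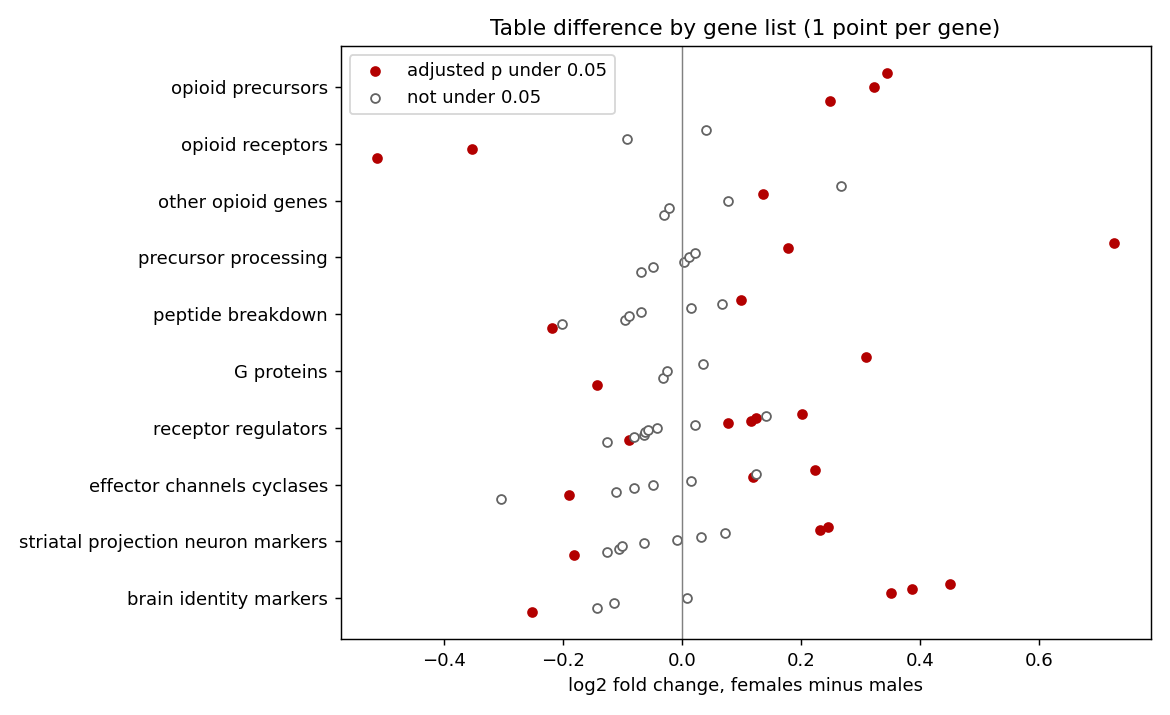
Log2 fold change, females minus males, of each gene of the opioid lists and of 2 marker lists, with 1 point per gene, filled where the adjusted p was under 0.05. The 3 precursors lie together between 0.249 and 0.345, whereas the other lists spread to both sides of 0.

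The cage was the last factor of the design, and it was examined with rank kept in the fit. None of the 7 members was called among the male cages, where 5.71% of 15304 genes were called (21.8% at an unadjusted p under 0.05), while Penk and Oprk1 had unadjusted p-values of 0.015 and 0.0265 (edgeR's quasi-likelihood test, adjusted p = 0.124 and 0.165). These depended on the setting, with an unadjusted p of 0.101 for Penk when exon-length trends were removed and of 0.266 for Oprk1 in DESeq2. The means of Penk in male cages ran from 129 CPM in cage 3 (133 and 125 CPM) to 152 CPM in cage 5 (149 and 156 CPM), the lowest and the highest of 7. The SD of Penk on the log2 scale was 0.084 between the means of male cages and 0.0473 within cages, whereas in females it was 0.0306 between cage means and 0.0843 within cages, and this difference between the tables was not tested. Without male cage 1 the adjusted p of Penk was 0.0353, so 1 of 7 members was then called, where 12% of all genes were. Oprk1 ran from 15.7 CPM in male cage 2 to 20.7 CPM in male cage 1. Marker genes called among these cages were the striatal Ppp1r1b and Rgs9 (adjusted p = 0.0413 and 0.0355, edgeR's quasi-likelihood test), the serotonergic Slc6a4 and Tph2 (0.00607 and 0.0313), the cortical Slc17a7 (0.00957), the neuronal Rbfox3 (0.0385) and the endothelial Cldn5 (0.0025). Of the 47 genes around the receptors 4 (8.51%) were called, Cpe, Gnai2, Adrbk1 and Rgs9, beside the 5.71% of all genes. The part of these genes in the Penk values was not tested.

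In females 0 of 7 members were called among the 4 cages, against 0.0725% of 15177 genes (5.08% unadjusted). Of the 47 genes around the receptors 1 (2.13%) was called among these cages, Pcsk1n (adjusted p = 0.0328, edgeR's quasi-likelihood test), and of the markers the serotonergic Tph2 (0.0348). Oprl1 (F = 5.52, unadjusted p = 0.00659) and Oprk1 (F = 4.98, unadjusted p = 0.0101) had adjusted p-values of 0.749 and 0.8 in edgeR's quasi-likelihood test, and DESeq2 gave 0 members an unadjusted p under 0.05. Both were lowest in cage 3 and highest in cage 2, at 71.5 and 83.4 CPM for Oprl1 and at 12 and 16.1 CPM for Oprk1. The contrast of cages with group labels (replicates 3 and 4) minus those with numbers (replicates 1 and 2) called 0 of 7 members, against 0.00667% of 14998 genes. Oprk1 was at 12 and 14.1 CPM in the cages with group labels and at 13.9 and 16.1 CPM in those with numbers, a log2 fold change of -0.20 (unadjusted p = 0.0388, adjusted p = 0.864, edgeR's quasi-likelihood test).

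**Figure D5:**
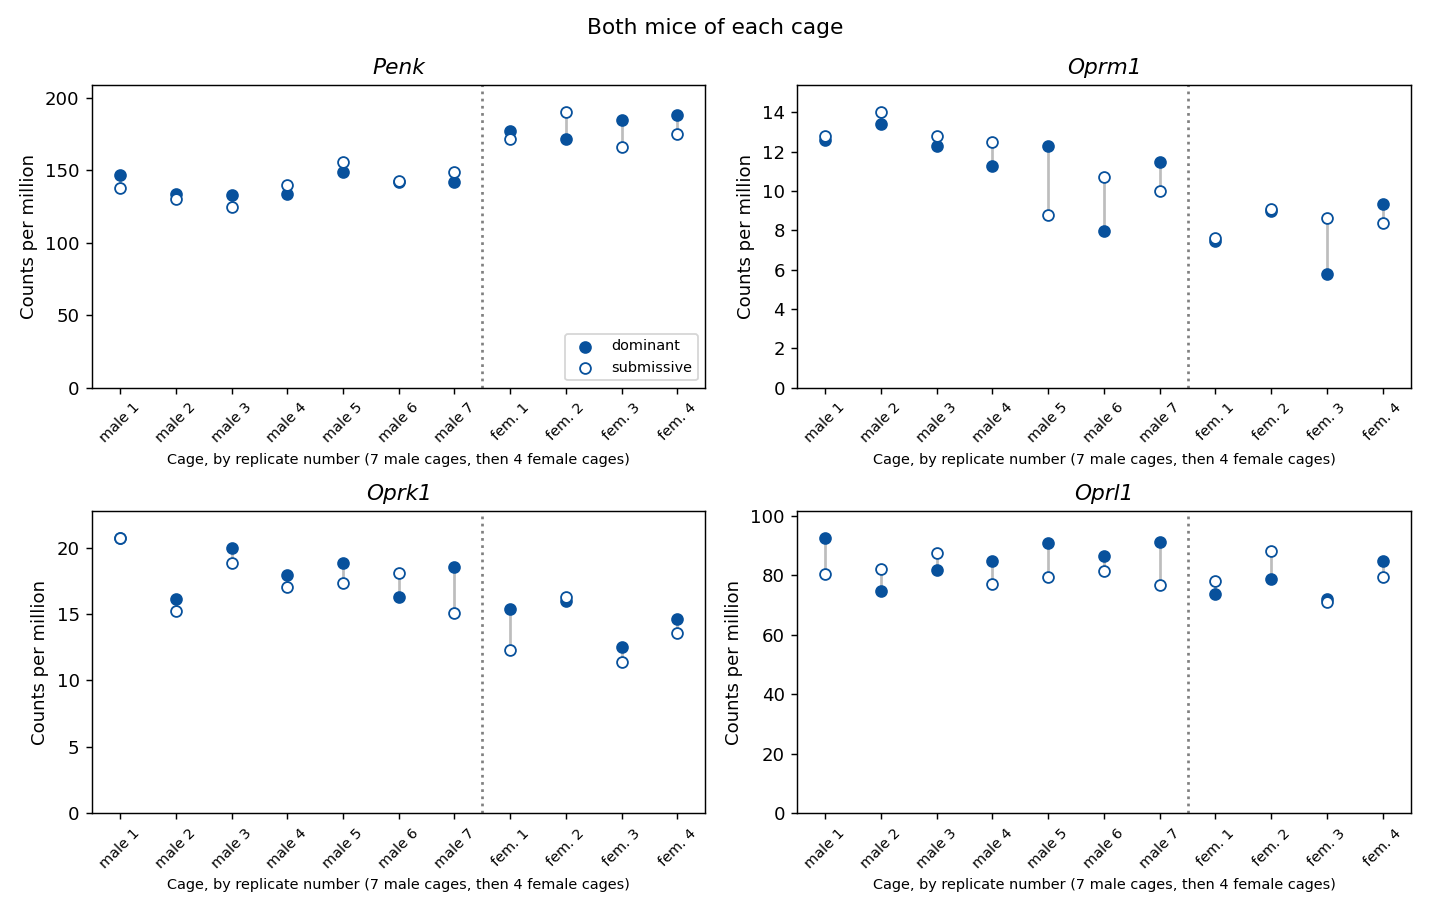
Level in CPM of the dominant (filled) and the submissive mouse (open) of each cage for Penk, Oprm1, Oprk1 and Oprl1, with axes from 0, 7 male cages left and 4 female cages right of the dotted line. Cage mates lie close together for Penk in males and far apart for Oprm1 in male cages 5 and 6 and female cage 3.

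The members varied in part together from mouse to mouse. After the 4 group means were removed, Pearson's r over the 22 samples, which share depth and tissue composition and are described without a test, was positive in 13 of 21 member pairs. The highest were Pdyn with Oprd1 (0.71), Penk with Pdyn (0.682) and Penk with Oprd1 (0.64), followed by Oprk1 with Oprl1 (0.6). The lowest was Penk with Oprm1 (-0.413), and it was -0.582 in males and 0.027 in females. Within the 8 females the lowest were those of Pnoc with Oprd1 (-0.865), Pdyn (-0.844) and Penk (-0.831), which were -0.049, -0.061 and -0.076 in males. Penk followed the mean of the striatal markers (r = 0.763) and Oprm1 that of the hypothalamic ones (r = 0.744), both little changed without dominant male 1 (0.761 and 0.738). Penk also followed the interneuron (0.645, and 0.655 without dominant male 1) and cortical lists (0.581 and 0.571). Oprd1 was closest to the interneuron list (0.716 and 0.759). Pdyn was closest to the cortical list (0.732, and 0.62 without dominant male 1), followed in size by the cerebellar (-0.642 and -0.47), striatal (0.58 and 0.465) and interneuron lists (0.568 and 0.681).

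Of 14253 genes searched, the pattern most like that of Penk was that of Ppp1r1a, a protein phosphatase inhibitor (r = 0.934 over 22 samples, 0.925 in males and 0.966 in females), followed by Prkcb (0.902) and Brinp1 (0.889). Pdyn was most like Atxn7l3 (0.903), Dlg3 (0.87) and Ubqln4 (0.866), and Pnoc like Emilin2 (0.718), Cd109 (0.706) and Chst9 (0.689). For the receptors, Oprm1 was most like Entpd7 (0.864), Grin3a (0.849) and Scn9a (0.846), and Oprd1 like the adenosine receptor gene Adora1 (0.82), BC025920 (0.818) and Nudcd3 (0.814). Oprk1 was most like Cdh10 (0.782), Macrod2 (0.774) and Brinp3 (0.757), and Oprl1 like Pdzrn4 (0.757), Crhbp (0.742) and Sag (0.732). Within the 8 females alone, Ppp1r1a ranked 11 for Penk and Emilin2 ranked 1025 for Pnoc, so the ranking depended on the samples used.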

How the data were processed

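Total RNA of 22 right hemispheres was sequenced (85 nt, single end) after removal of ribosomal RNA. Per the labels, the authors used cutadapt 1.15, STAR 2.6.0a and featureCounts 1.6.2 on mm10 and deposited raw counts per gene, with no normalization. The strand setting and the treatment of multi-mapping reads are not given in the sources used here. Counts were scaled to CPM with TMM factors and tested with edgeR 4.0.16 (R 4.3.3, quasi-likelihood F-test, filterByExpr with min.count 10 and min.total.count 15, Benjamini-Hochberg adjustment over all genes, threshold 0.05), within each sex, with cage as a term over 11 cages, and with 4 group means for the interaction and the table difference. Tests were checked on simulated data. Log2 CPM for exact tests and correlations used a prior count of 2 (alternative 0.5). The smallest p that an exact test could reach was 0.000583 for 7 against 7 and 0.0286 for 4 against 4 mice. For the sign-flip test it was 0.0156 for 7 pairs, 0.125 for 4 pairs and 0.000977 for 11 pairs.

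Alternatives were DESeq2 1.42.0 (the study's tool), its size factors, no filter, loess trends on exon length or GC content (span 0.3), the cage block, a joint fit of all samples, and omission of samples. The GC trend, counts summed per cage and the joint omission of dominant male 1 and submissive female 3 were chosen after seeing the data. The members and the lists were chosen with earlier results of these data known. Named genes are the 7 members, list genes with an adjusted p under 0.05 (except 1 not reported here) or the largest change of a list, and the 3 genes most like each member; Prl, Gh, Pcp2, Pcsk1 and Pcsk2 were added after their values were seen. Same-numbered mice share a cage according to the library names and were, per the study's methods, killed together. The mean correlation of their deviations was 0.157 in males (other pairs -0.0261) and 0.0211 in females (other pairs -0.00703). Core sequences came from GENCODE M21 transcripts (mm10), the transcript with the longest coding sequence per gene. Replicates are separate mice. The m6A, protein and hormone measurements were not analysed here.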

Additional observations from a re-analysis of the deposited data

Results flagged for a closer look

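In 2 of 42 checks of a member in a group of 4 to 10 samples, 1 mouse lay far from the rest by Dixon's criterion, and chance flags about 1 in 20 groups. Pnoc was 7.54 CPM in submissive male 4, above the other submissive males at 5.37 to 6.15 CPM. Oprm1 was 7.96 CPM in dominant male 6, below the other dominant males at 11.3 to 13.4 CPM. Neither mouse was one of the libraries with unusual cerebellar or pituitary reads.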

How the results depend on the processing

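No member was called by rank or in the interaction under any alternative. The replicate block, which pairs cage mates, changed no call of a member, and the table difference called 4 to 6 of the 7 over its settings. Over all settings of the fits across all genes a member's direction changed 21 times by rank in males, 3 times in females, 7 times over the cages, 5 times in the interaction, 14 times for the cage labels and 1 time between tables, in each case without a call. Oprm1 by rank in males moved from -0.00111 to 0.00489 (exon length), 0.000164 (replicate block), 0.00584 (both), 0.000209 (all 22 samples) and 0.00121 (GC content), and Oprd1 between tables moved to -0.0103 with submissive mice only. Leaving out samples gave, by rank in males, ranges of -0.0285 to 0.0245 for Penk, -0.0253 to 0.0918 for Pdyn, -0.0601 to 0.0747 for Oprm1 and -0.00734 to 0.0727 for Oprd1. In females it gave -0.0662 to 0.00911 for Pdyn, -0.189 to 0.0211 for Oprm1 and -0.0875 to 0.0122 for Oprl1. Over the cages it gave -0.000675 to 0.028 for Penk, -0.0426 to 0.04 for Pdyn and -0.0854 to 0.0108 for Oprm1, and in the interaction -0.1 to 0.0215 for Pnoc, -0.182 to 0.028 for Oprm1 and -0.0152 to 0.158 for Oprk1. For cages with group labels minus numbered cages the ranges were -0.0174 to 0.0536 for Penk, -0.0161 to 0.0739 for Pdyn, -0.0555 to 0.102 for Pnoc and -0.164 to 0.0922 for Oprm1. On the scale of the exact tests they were -0.0273 to 0.0269 for Penk, -0.0358 to 0.0841 for Pdyn, -0.0673 to 0.0843 for Oprm1 and -0.0124 to 0.0704 for Oprd1 in males, and -0.0584 to 0.0173 for Pdyn, -0.206 to 0.0227 for Oprm1 and -0.0821 to 0.0208 for Oprl1 in females. The number of members under 0.05 in those tests was 0 to 1 when a mouse was left out (Oprl1), and the number called among male cages was 0 to 1 (Penk without cage 1). Counts over all genes moved more: 14 by rank in females became 0 to 84 over other settings (79 with DESeq2, 38 with the block, 0 with exon length) and 0 to 77 without single mice; 5512 between tables became 2171 with dominant mice only; 874 among male cages became 522 with exon length and 392 to 1829 without single cages; 11 among female cages became 5 to 99 and 3 to 29; and 1 for cage labels became 0 to 20 and 0 to 6. The causes were not tested. Pnoc and Oprm1 had at most 133 and 201 reads per sample, which sets their counting error; the part of depth in their intervals was not tested.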
